A study of Rattus norvegicus with 16 samples.

Results

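A set of 9 liver enzymes that handle the nitrogen and carbon of amino acids were followed in rats given the liver carcinogen N-nitrosodiethylamine (NDEA). The 9 genes were taken by name from the 32623 gene records of the deposited table. They comprise the 5 enzymes of the urea cycle (Cps1, Otc, Ass1, Asl and Arg1) and 4 enzymes that open or carry forward the breakdown of single amino acids (Hal for histidine, Tat and Hpd for tyrosine, and Tdo2 for tryptophan).

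The rats were female Big Blue animals, transgenic for a vector with cII and lacI reporter genes, which controls and treated animals carried alike. They were 6 weeks old on receipt and were dosed after 1 week of acclimation. Treated rats received NDEA by gavage at 10 mg/kg/day for 28 days, and control rats were gavaged at 0 mg/kg/day. Dosing ended 3 days before tissue was collected. There were 4 groups of 4 libraries each: liver NDEA, liver control, marrow NDEA and marrow control. The labels describe individually dosed rats housed 3 to a cage. They do not tie libraries to cages, nor the liver and marrow libraries of 1 number to the same rat. The p-values measure the spread between these libraries. NDEA is oxidised by cytochrome P450 enzymes to a DNA-alkylating product, and the comparison addresses how liver and marrow transcripts differ after repeated dosing.

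The urea cycle turns ammonia, which is toxic to the brain, into urea, and in mammals the full cycle runs in hepatocytes, mostly those near the portal vein. Cps1 and Otc work in the mitochondrial matrix, and Ass1, Asl and Arg1 work in the cytosol. The ammonia comes largely from amino acids broken down in the same cells, through pathways whose first steps, such as those of Tat and Tdo2, are classical targets of glucocorticoid hormones.

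Liver libraries held 5000844 to 6863592 counts with NDEA and 5630838 to 6772923 counts in controls. Marrow libraries held 4394984 to 5705705 counts with NDEA and 2162182 to 5539409 counts in controls. Levels are given as counts scaled to a common library size (CPM); the scaling allows for composition and is done within a tissue. The libraries were read from the 3' end of transcripts, so levels of different genes can be set side by side without dividing by length, although the capture of each 3' end may differ. Every one of the 9 enzymes had at least 417 counts in each liver library. Liver identity was checked on a list of hepatocyte markers such as Alb and Ttr, whose 11 matched genes were all detected and summed to 116718 to 139306 CPM in NDEA livers, against 123541 to 150987 CPM in control livers. In liver, 9668 genes were tested, with calls made below an adjusted p of 0.05 (limma-voom, Benjamini-Hochberg over all genes tested). Of these, 277 (2.87%) were called higher and 362 (3.74%) lower with NDEA, or 390 higher and 239 lower when libraries were scaled by their totals alone.

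All 9 enzymes passed the filter on low counts in liver. Hal, Hpd, Tat and Ass1 fell with NDEA, Arg1 rose, and Cps1, Otc, Asl and Tdo2 did not pass the test. The 4 of 9 called lower stand beside 3.74% of all tested genes, and the 1 of 9 called higher beside 2.87%. The 9 were chosen with earlier results of these data known, so these shares are a description. In 3 of the 9 (Hal, Hpd and Tat) every NDEA library lay below every control library, as it did in 5.98% of all tested genes. The median log2 fold change of the 9 was -0.089, against 0.012 over all tested genes. With libraries scaled by their totals alone, the median of all tested genes was 0.12.

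**Figure D1:**
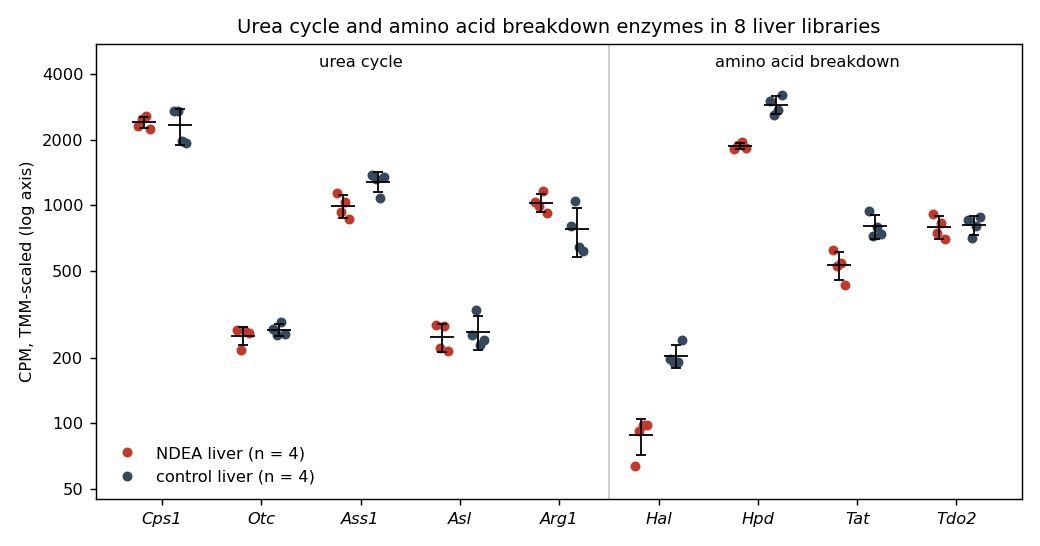
CPM on a log axis of the 9 enzymes in each of the 8 liver libraries. Points are libraries, NDEA left of control, and the bars give the mean and SD of 4. The NDEA points of Hal, Hpd and Tat lie below all control points, and the ranges of the other 6 enzymes overlap between the groups.

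Of the 5 enzymes of the urea cycle, Ass1 fell, Arg1 rose and the other 3 did not pass the test. Cps1, carbamoyl-phosphate synthetase, makes the cycle's entry compound from ammonia and bicarbonate and is the step that sets its pace (ENSRNOG00000013704, placed by the deposited table at position 74124016 of chromosome 9 on an unnamed build). It had 2320, 2477, 2567 and 2243 CPM in the NDEA livers, against 2711, 2696, 1971 and 1928 CPM in the control livers. The NDEA values fell inside the control range, and controls 1 and 2 were the high ones. On the log2 scale the difference was 0.059 (SE 0.10, adjusted p = 0.815), a ratio of 1.04 with a 95% interval of 0.898 to 1.21.

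Otc, ornithine transcarbamylase, joins that compound to ornithine to give citrulline (ENSRNOG00000003370, chromosome X, 13524607). It had 267, 218, 265 and 260 CPM in the NDEA livers, against 272, 255, 293 and 257 CPM in the control livers. NDEA library 2 was the low one, and the others lay within the control range. On the log2 scale the difference was -0.089 (SE 0.12, adjusted p = 0.738), a ratio of 0.940 with a 95% interval of 0.796 to 1.11.

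Ass1, argininosuccinate synthase, condenses citrulline with aspartate, which brings in the second nitrogen of urea (ENSRNOG00000008837, chromosome 3, 10327414). It fell with NDEA. Its levels were 1139, 929, 1038 and 866 CPM in the NDEA livers, against 1385, 1318, 1083 and 1353 CPM in the control livers. The groups overlapped through NDEA 1 and control 3. The means were 993 ± 121 CPM with NDEA and 1285 ± 137 CPM in controls (SD, n = 4 each), a log2 fold change of -0.37 (SE 0.10, adjusted p = 0.0281). The call ended when control 1, control 4, NDEA 2 or NDEA 4 was left out (adjusted p = 0.0624, 0.0822, 0.0897 and 0.109, in that order, from the same limma-voom test), and when libraries were scaled by their totals alone (adjusted p = 0.118). It also ended when all 16 libraries shared 1 fit (adjusted p = 0.350) and when the mitochondrial share was in the fit (adjusted p = 0.485).

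Asl, argininosuccinate lyase, splits the product of Ass1 into arginine and fumarate (ENSRNOG00000000903, chromosome 12, 30165694). It had 282, 221, 280 and 214 CPM in the NDEA livers, against 254, 332, 228 and 240 CPM in the control livers. The groups overlapped widely. This was a log2 fold change of -0.071 (SE 0.14, adjusted p = 0.833), a ratio of 0.952 with a 95% interval of 0.783 to 1.16.

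Arg1, arginase, releases urea from arginine and gives back ornithine (ENSRNOG00000013304, chromosome 1, 21525421). It rose with NDEA, by a ratio of 1.35 (95% interval 1.12 to 1.62). Its levels were 1038, 991, 1161 and 923 CPM in the NDEA livers, against 805, 1049, 647 and 614 CPM in the control livers. The groups overlapped through control 2 alone, and the other controls lay below every NDEA library. The log2 fold change was 0.43 (SE 0.13, adjusted p = 0.0454 by limma-voom). It lost its call in 11 of 17 alternative settings, among them leaving out control 1, control 3, control 4, NDEA 1, NDEA 2 or NDEA 3 (adjusted p = 0.0505, 0.189, 0.197, 0.0764, 0.0772 and 0.139, in that order). Its direction held in all 17, with log2 fold changes of 0.24 to 0.57.

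Ratios of 2 enzymes within a library, chosen after their values were seen, do not depend on how libraries were scaled. Arg1 was called higher and Ass1 lower, so a gap in their ratio restates these calls and is no separate support. The Arg1 count was 1.04 ± 0.0900 times the Ass1 count in NDEA livers and 0.607 ± 0.141 times in control livers (SD, n = 4 each). All 4 NDEA libraries lay above all 4 control libraries for this ratio. Arg1 over Asl was 4.15 ± 0.347 in NDEA livers and 2.93 ± 0.293 in control livers, again without overlap. Ass1 over Cps1 was 0.414 ± 0.0527 in NDEA livers and 0.563 ± 0.0959 in control livers, and these groups overlapped.

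Of the 4 amino acid breakdown enzymes, Hal, Tat and Hpd fell and Tdo2 did not pass the test. Hal, histidine ammonia-lyase, removes ammonia from histidine in the first step of its breakdown (ENSRNOG00000004502, chromosome 7, 34326087). It had 63.7, 92.3, 98.0 and 97.9 CPM in the NDEA livers, against 197, 189, 190 and 242 CPM in the control livers. The highest NDEA value lay well below the lowest control value. The means were 88.0 ± 16.4 CPM with NDEA and 205 ± 24.9 CPM in controls (SD, n = 4 each), a ratio of 0.427 with a 95% interval of 0.342 to 0.533. The log2 fold change was -1.23 (SE 0.15, adjusted p = 9.56e-06), the largest change in size among the 9 enzymes.

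Tat, tyrosine aminotransferase, takes the amino group from tyrosine, and its induction in rat liver by glucocorticoids is a textbook case of hormone control (ENSRNOG00000016348, chromosome 19, 41675355). It had 625, 528, 542 and 432 CPM in the NDEA livers, against 943, 725, 796 and 739 CPM in the control livers. No NDEA library reached the lowest control. The ratio was 0.660 (95% interval 0.559 to 0.780), and the log2 fold change was -0.60 (SE 0.12, adjusted p = 0.00155).

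Hpd, 4-hydroxyphenylpyruvate dioxygenase, acts on the product of Tat and makes homogentisate (ENSRNOG00000001338, chromosome 12, 38828444). It had 1812, 1894, 1959 and 1838 CPM in the NDEA livers, against 3011, 2590, 2751 and 3199 CPM in the control livers. The NDEA values were tightly grouped, and all of them lay below all controls. The means were 1876 ± 65.4 CPM with NDEA and 2888 ± 271 CPM in controls (SD, n = 4 each), a ratio of 0.651 with a 95% interval of 0.579 to 0.733. The log2 fold change was -0.62 (SE 0.08, adjusted p = 2.10e-05).

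Tdo2, tryptophan 2,3-dioxygenase, opens the ring of tryptophan and starts the kynurenine pathway (ENSRNOG00000011612, chromosome 2, 180897011). It had 913, 743, 826 and 704 CPM in the NDEA livers, against 858, 707, 803 and 886 CPM in the control livers. The groups covered almost the same range. This was a log2 fold change of -0.031 (SE 0.10, adjusted p = 0.914), a ratio of 0.979 with a 95% interval of 0.843 to 1.14.

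Set against Tdo2 within each library, the other breakdown enzymes kept their separation. Tdo2 had not passed the test and the others were already apart in CPM, so these ratios restate that result and are no separate support. Hal over Tdo2 was 0.113 ± 0.0300 in NDEA livers and 0.252 ± 0.0215 in control livers (SD, n = 4 each). Hpd over Tdo2 was 2.38 ± 0.282 in NDEA livers and 3.55 ± 0.107 in control livers. Tat over Tdo2 was 0.666 ± 0.0409 in NDEA livers and 0.988 ± 0.112 in control livers. For each of these ratios all NDEA libraries lay below all controls. The ratio of Tat to Hpd, neighbours in the tyrosine pathway, was 0.284 ± 0.0453 in NDEA livers and 0.278 ± 0.0346 in control livers, with overlap.

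**Figure D2:**
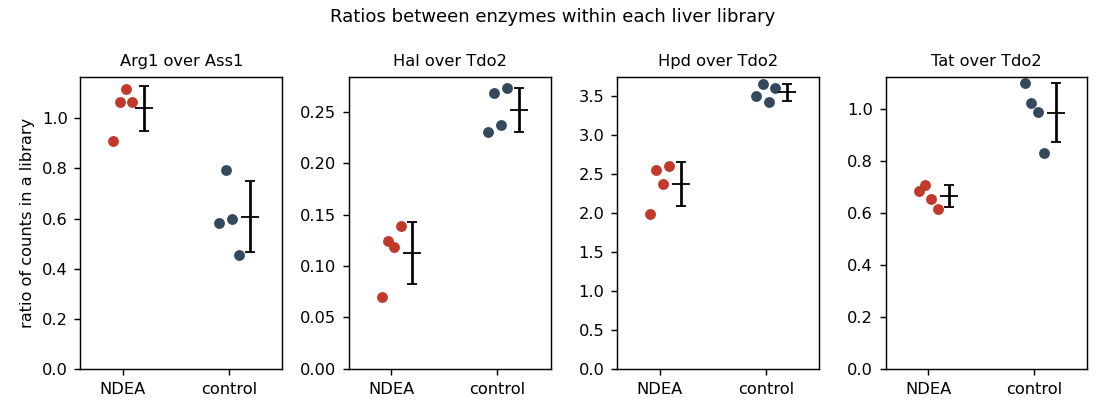
Ratios of counts of enzyme pairs in each liver library, NDEA left of control, with points for libraries and bars for the mean and SD of 4. Arg1 over Ass1 lies higher in every NDEA library, and the ratios of Hal, Hpd and Tat to Tdo2 lie lower in every NDEA library.

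Hal and Hpd were called in all 17 alternative settings, with log2 fold changes of -1.30 to -1.08 for Hal and -0.67 to -0.48 for Hpd. Tat was called in 16 of 17. The exception added each library's mitochondrial share of counts as a covariate, which left Tat at a log2 fold change of -0.30 (adjusted p = 0.50). That share was 20.09% to 22.36% in NDEA livers, against 16.21% to 20.58% in control livers. Control 2 held the 20.58%, above NDEA 3, and the other controls had 16.21%, 17.36% and 17.91%. Control 2 was also the lowest control for Hal (189 CPM), Hpd (2590) and Tat (725) and the highest for Arg1 (1049). For Ass1 the lowest was control 3 (1083). Why control 2 lay there was not tested. Apart from control 2 the share moved with treatment. Its part in the changes of Tat, Ass1 and Arg1 was not tested apart from this fit.

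**Figure D3:**
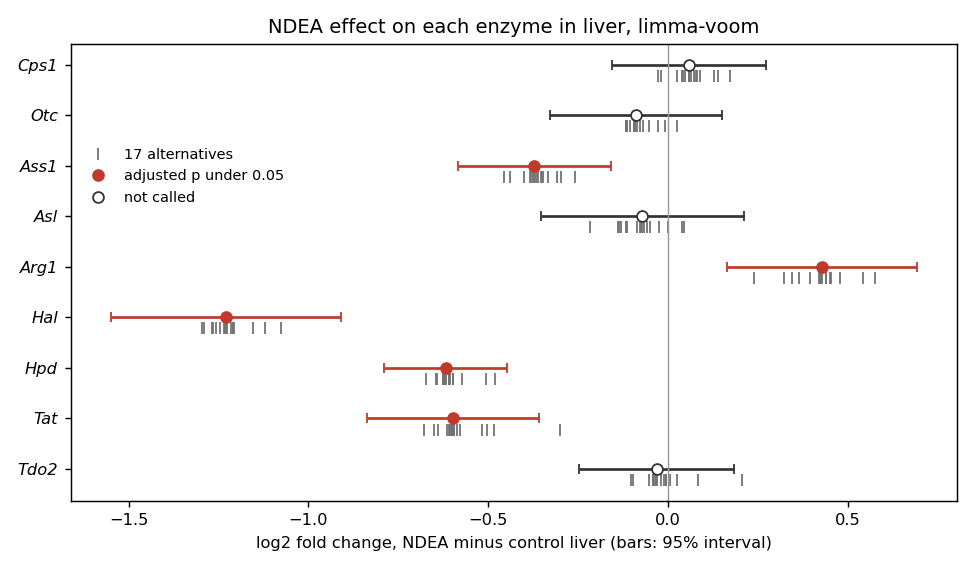
Log2 fold change of each enzyme in liver, NDEA minus control, with its 95% interval, and ticks for the 17 alternative settings. Hal, Hpd and Tat lie below 0 in every setting, Ass1 lies below 0 and Arg1 above 0 in every setting but with calls that depend on it, and the values of Cps1, Otc, Asl and Tdo2 lie near 0.

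The order of levels also differed between the groups. In NDEA livers it ran from Cps1 through Hpd, Arg1, Ass1, Tdo2, Tat, Otc and Asl to Hal. The neighbours Arg1 and Ass1, Ass1 and Tdo2, and Otc and Asl overlapped between libraries. In control livers it ran from Hpd through Cps1, Ass1, Tdo2, Tat, Arg1, Otc and Asl to Hal. There, Hpd and Cps1, Tdo2 and Tat, Tat and Arg1, Otc and Asl, and Asl and Hal overlapped. In NDEA livers Hal lay apart below Asl.

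Start-site sequence was looked at because mRNA levels of 2 liver transcription factors tied to these enzymes, Hnf4a and Onecut1 (HNF6), were lower with NDEA (values below). RefSeq promoters of build GRCr8 were on hand for 7 of the 9 genes. The 250 bases before the start are shown for 2 enzymes that fell (Hpd and Tat) and 2 that did not pass the test (Cps1 and Otc). Capitals mark matches to the motifs searched.
Hpd (chr12:39041996-39042245, plus strand): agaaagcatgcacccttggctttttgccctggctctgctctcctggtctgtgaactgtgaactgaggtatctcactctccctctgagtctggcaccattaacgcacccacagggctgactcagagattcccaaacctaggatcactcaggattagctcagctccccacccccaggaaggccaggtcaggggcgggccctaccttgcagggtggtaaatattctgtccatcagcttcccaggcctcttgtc
Tat (chr19:54856354-54856603, plus strand): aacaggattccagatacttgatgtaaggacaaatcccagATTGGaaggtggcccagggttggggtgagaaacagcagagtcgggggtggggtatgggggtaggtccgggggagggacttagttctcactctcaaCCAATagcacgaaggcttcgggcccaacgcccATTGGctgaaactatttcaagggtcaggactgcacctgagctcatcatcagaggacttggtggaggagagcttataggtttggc
Cps1 (chr9:76063613-76063862, plus strand): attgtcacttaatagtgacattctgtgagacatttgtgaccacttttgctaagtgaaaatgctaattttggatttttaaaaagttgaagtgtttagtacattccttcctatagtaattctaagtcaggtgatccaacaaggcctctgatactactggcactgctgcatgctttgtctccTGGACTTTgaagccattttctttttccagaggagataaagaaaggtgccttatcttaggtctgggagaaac
Otc (chrX:15202474-15202723, minus strand): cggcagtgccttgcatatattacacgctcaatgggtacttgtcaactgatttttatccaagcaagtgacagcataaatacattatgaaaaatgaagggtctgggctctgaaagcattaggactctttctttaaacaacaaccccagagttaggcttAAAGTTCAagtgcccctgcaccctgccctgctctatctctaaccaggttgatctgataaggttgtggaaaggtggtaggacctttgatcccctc
Motifs were searched on both strands. The HNF4 letters AAAGTNCA were found in Cps1 (71 to 64 bases before the start) and Otc (94 to 87 bases before), and in 4.01% of all 33469 promoters of this length. No other promoter of the 7 held them, so the sequences shown do not stand for the set. Asl and Tdo2, which also did not pass the test, and Ass1, which fell, held no HNF4 letters and are not shown. CCAAT was found 3 times in Tat and 1 time in Tdo2, and in 34.0% of all promoters. ATTGAT (HNF6), TTGCNNAA (C/EBP), AGAACA (glucocorticoid receptor) and TGACGTCA (CREB) were found in none of the 7, against 7.1%, 9.22%, 17.5% and 1.59% of all promoters. Ass1, Asl and Hpd held none of the 6 motifs in this window. These are matches of letters within 250 bases of the start. Sites further away were not searched, so a motif not found here may lie elsewhere, and no binding was measured.

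Bone marrow served as the contrast. Cps1, Arg1, Hal, Tat and Tdo2 had 0 counts in all 8 marrow libraries, which over 38206738 counts allows up to 0.0785 CPM (3 counts over all libraries, counting error only). Otc had 17 counts, all in marrow NDEA 4. Hpd had 13 counts over the NDEA libraries and 26 over the control libraries. The other 2 enzymes were detected throughout.

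Ass1 and Asl, which also make and recycle arginine outside the urea cycle, were counted in every marrow library. Ass1 had 43.8, 86.0, 18.9 and 23.5 CPM in the marrow NDEA libraries, against 47.4, 75.6, 45.2 and 79.9 CPM in the marrow controls. NDEA 2 was the highest of all 8, and NDEA 3 and 4 the lowest. Its log2 fold change was -0.75 (SE 0.39, adjusted p = 0.375). Asl had 14.1, 14.4, 8.94 and 9.69 CPM in the marrow NDEA libraries, against 7.54, 18.7, 22.7 and 17.2 CPM in the marrow controls. Controls 2, 3 and 4 lay above all NDEA libraries and control 1 below them, with a log2 fold change of -0.54 (SE 0.41, adjusted p = 0.534).

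In marrow 0 of 9239 genes tested (0%) were called by limma-voom, while 1336 had an unadjusted p under 0.05. The limma-trend variant also called 0, and leaving out marrow control 3 gave 318 calls. The NDEA effect was compared between tissues by an interaction term, which was called for 2.28% of 11261 genes. For Ass1 the liver effect minus the marrow effect was 0.45 on the log2 scale (SE 0.40, adjusted p = 0.613), and for Asl 0.53 (SE 0.46, adjusted p = 0.596). These values shifted with scaling, to 0.31 and 0.40 with median-of-ratios size factors and to 0.54 and 0.64 with library totals alone. A difference between the tissues in these 2 genes was not detectable at this spread.

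Around the 9 enzymes, 69 further enzymes of amino acid metabolism from 9 lists were tested in liver. Of these, 14 fell and 5 rose, and 50 did not pass the test. The share lower was 20.3%, against 3.74% of all tested genes, and the share higher 7.25%, against 2.87%. The lists were chosen with earlier results of these data known, and the genes compared were not matched for level, so these shares are a description. Their median log2 fold change was -0.19, and 22 of 69 lay above 0. With each library left out in turn, 7 of the 14 lower calls and 4 of the 5 higher calls held throughout. With library totals alone 6 of the 14 lower and 5 of the 5 higher calls held, and 2 of 14 and 2 of 5 did when the fit included each library's mitochondrial share. These last were Oat, Kynu, Sds and Csad. Among the lower calls lost in that fit, some log2 fold changes moved away from 0 (Dhtkd1 to -0.92, Ivd to -0.68). Others moved toward 0 (Amdhd1 to -0.55, Aldh7a1 to -0.27). In marrow 36 of these enzymes were tested and 0 were called.

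**Figure D4:**
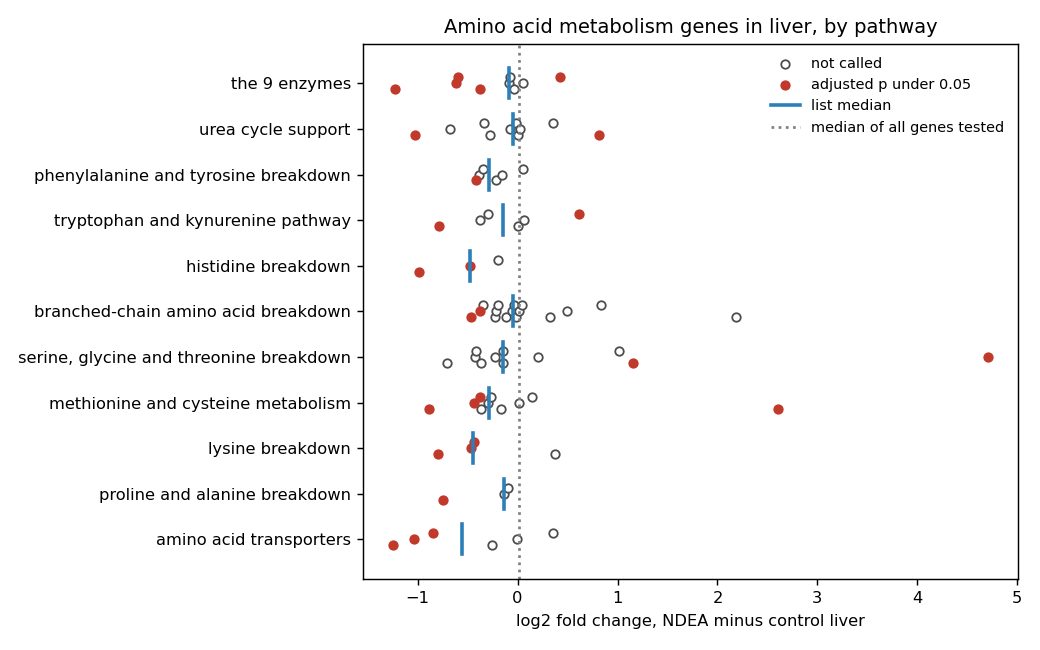
Log2 fold changes in liver, NDEA minus control, of the 9 enzymes, the 9 lists of further enzymes and the transporters, with 1 row per list and 1 point per gene. Filled points are called genes, open points are not, bars give list medians and the dotted line the median of all genes tested. Most points lie within 1 unit of 0, and the filled points of Sds (4.70) and Csad (2.61) stand far to the right.

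Of 10 tested genes that feed or support the urea cycle, 1 fell and 1 rose. Oat, ornithine aminotransferase, which takes ornithine out of the cycle and is made by hepatocytes near the central vein, had 145, 166, 161 and 194 CPM in the NDEA livers, against 373, 272, 340 and 372 CPM in the control livers. The groups were far apart, with a ratio of 0.492 (95% interval 0.407 to 0.595) and a log2 fold change of -1.02 (adjusted p = 1.35e-05). Got1, cytosolic aspartate aminotransferase, rose by a log2 fold change of 0.81 (adjusted p = 0.016), with means of 156 CPM in NDEA livers and 87.9 CPM in control livers. That call ended without control 3, control 4 or NDEA 1 (adjusted p = 0.0859, 0.0527 and 0.0616). Nags, which makes the activator that Cps1 needs, was at -0.28 (adjusted p = 0.483), and the ornithine carrier Slc25a15 at 0.36 (adjusted p = 0.166). Glud1 and Glul, which release ammonia from glutamate and bind it into glutamine, were at -0.014 and 0.0053.

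In histidine breakdown 2 of the 3 tested enzymes after Hal fell, and the median was -0.47. Amdhd1, which acts 2 steps after Hal, had 55.8, 63.2, 87.9 and 48.1 CPM in the NDEA livers, against 147, 105, 101 and 150 CPM in the control livers. The groups did not overlap, and the log2 fold change was -0.99 (adjusted p = 0.00169). Ftcd, the last enzyme, which passes a one-carbon unit to folate, fell by 0.47 on the log2 scale (adjusted p = 0.0131), a call that ended without control 3 or NDEA 4 (adjusted p = 0.0689 and 0.0558). Uroc1, the step between Hal and Amdhd1, was at -0.20 (adjusted p = 0.383).

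In the phenylalanine and tyrosine list, 1 of 6 tested genes fell. Qdpr, which regenerates tetrahydrobiopterin, was at -0.42 (adjusted p = 0.0177), and lost its call without control 3, control 4, NDEA 1 or NDEA 2 (adjusted p = 0.0656, 0.06, 0.0524 and 0.0599). Hgd, the enzyme after Hpd, was at 0.059 (adjusted p = 0.845). The last step, Fah, was at -0.39 (adjusted p = 0.162).

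In the tryptophan list, downstream of Tdo2, 1 of 6 tested genes fell and 1 rose. Kynu, kynureninase, had 109, 112, 108 and 143 CPM in the NDEA livers, against 165, 238, 216 and 200 CPM in the control livers. All NDEA values lay below all controls, with a log2 fold change of -0.79 (adjusted p = 0.00101). Afmid, the formamidase that acts directly after Tdo2, rose by 0.61 on the log2 scale (adjusted p = 0.00589), with means of 162 CPM in NDEA livers and 105 CPM in control livers. The extrahepatic counterpart of Tdo2, Ido1, had no counts in liver.

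Among the called enzymes of these lists, Sds and Csad had the largest rises. Sds, serine dehydratase, which turns serine into pyruvate and ammonia, had 128, 89.6, 195 and 79.3 CPM in the NDEA livers, against 2.97, 22.1, 2.52 and 2.21 CPM in the control livers. Control 2 was the high control, yet lay below every NDEA library, and the ratio was 26.1 (95% interval 9.22 to 73.7, log2 fold change 4.70, adjusted p = 0.000131). Over the 17 alternatives the log2 fold change of Sds ran from 3.93, with replicate number in the fit, to 5.46, without control 2. Csad, which makes the taurine precursor hypotaurine, had 479, 427, 292 and 385 CPM in the NDEA livers, against 40.0, 109.8, 46.5 and 83.9 CPM in the control livers. Its ratio was 6.09 (95% interval 4.39 to 8.44, log2 fold change 2.61, adjusted p = 4.14e-08), and its log2 fold change was 1.80 with the mitochondrial share in the fit. Gldc, of the glycine cleavage system, rose by 1.15 on the log2 scale (adjusted p = 0.00468). In the serine, glycine and threonine list 2 of 11 tested genes rose and 0 fell.

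In the methionine and cysteine list 3 of 10 tested genes fell and 1 (Csad) rose. Gnmt, which disposes of surplus methyl groups, was at -0.89 (adjusted p = 0.000702), Cth, which makes cysteine, at -0.44 (adjusted p = 0.0192), and Mat1a, which makes S-adenosylmethionine, at -0.37 (adjusted p = 0.0487). The call of Cth ended without control 4 or NDEA 1 (adjusted p = 0.0858 and 0.0724). That of Mat1a ended without any library but control 4 or NDEA 1 (adjusted p between 0.0638 and 0.18).

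In the lysine list 3 of 4 tested genes fell. Dhtkd1 was at -0.80 (adjusted p = 0.00429), Gcdh at -0.46 (adjusted p = 0.042) and Aldh7a1 at -0.44 (adjusted p = 0.0119). The call of Gcdh ended without any library but control 1 (adjusted p between 0.0587 and 0.123). In the branched-chain list 2 of 16 fell, Ivd at -0.47 (adjusted p = 0.0246) and Hibadh at -0.38 (adjusted p = 0.0487). The call of Ivd ended without control 3, control 4, NDEA 1 or NDEA 3 (adjusted p = 0.0995, 0.0841, 0.0756 and 0.0685), and that of Hibadh without any library but control 2 or NDEA 1 (adjusted p between 0.074 and 0.139). Bcat2, the mitochondrial transaminase of these amino acids, was at 2.18 with all NDEA libraries above all controls, but did not pass the test (adjusted p = 0.100). It was called by limma-trend alone of the 17 alternatives (adjusted p = 0.0287). Its means were 10.1 ± 2.69 CPM in NDEA livers and 2.38 ± 1.58 CPM in control livers (SD, n = 4 each). In the proline and alanine list 1 of 3 fell, Prodh2 at -0.75 (adjusted p = 0.00196).

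Among amino acid transporters 3 of 6 tested genes fell and 0 rose. Slc7a2, which carries arginine and ornithine into hepatocytes, had 54.1, 38.7, 39.2 and 40.0 CPM in the NDEA livers, against 63.9, 92.1, 74.8 and 80.4 CPM in the control livers. The groups did not overlap, with a log2 fold change of -0.85 (adjusted p = 0.00589). Slc6a13 was at -1.04 (adjusted p = 0.000246) and Slc16a10, which carries aromatic amino acids, at -1.24 (adjusted p = 0.0218). The call of Slc16a10 ended without control 2, control 4, NDEA 2 or NDEA 4 (adjusted p = 0.0617, 0.0655, 0.0505 and 0.0668). With the mitochondrial share in the fit, Slc7a2 kept its call and the other 2 did not, with Slc16a10 then at -1.68 and Slc6a13 at -0.89.

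Of 14 tested hormone receptors and transcription factors linked to these enzymes, 3 fell and 0 rose. Hnf4a, a nuclear receptor that hepatocyte genes depend on, had 236, 200.3, 203 and 190.2 CPM in the NDEA livers, against 430, 323, 336 and 306 CPM in the control livers. All NDEA values lay below all controls, with a log2 fold change of -0.75 (adjusted p = 0.000429). Onecut1 was at -1.04 (adjusted p = 0.00378), and Gcgr, the receptor through which glucagon drives amino acid breakdown and urea synthesis, at -0.94 (adjusted p = 0.00228). Cebpa and Cebpb were at -0.15 and 0.0055 (adjusted p = 0.666 and 0.991). None of the 3 calls held with the mitochondrial share in the fit, which put Hnf4a at -0.51, Onecut1 at -1.20 and Gcgr at -0.86.

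In the list of glucocorticoid and cAMP-induced liver genes, a class to which Tat belongs, 3 of 9 tested genes fell and 1 rose. Fkbp5 rose to 33.2, 35.3, 39.1 and 25.9 CPM in the NDEA livers, against 5.93, 26.6, 6.13 and 1.29 CPM in the control livers. Control 2 was the high control and lay above NDEA 4, and the log2 fold change was 2.41 (adjusted p = 0.00431). It was 3.09 without control 2 and 1.74 without control 4. Mt2A was at -1.29 (adjusted p = 0.000209), G6pc1 at -0.85 (adjusted p = 0.0404) and Igfbp1 at -0.85 (adjusted p = 0.0483). The call of G6pc1 ended without any library but control 2, NDEA 1 or NDEA 2 (adjusted p between 0.0545 and 0.159), and that of Igfbp1 without any but control 2, control 4 or NDEA 1 (adjusted p between 0.0578 and 0.191). Pck1, which commits amino acid carbon to glucose, was at 0.25 (adjusted p = 0.40). In the list of ATF4 targets, which respond to lack of amino acids, 1 of 5 tested genes was called, Atf4 itself at -0.76 (adjusted p = 0.0006). The calls of both lists ended with the mitochondrial share in the fit. Fkbp5 was then at 1.41, Mt2A at -0.88, G6pc1 at -0.55, Igfbp1 at -0.57 and Atf4 at -0.54.

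The liver was measured in bulk, so fewer cells of a type and less RNA per cell cannot be told apart. Urea cycle enzymes are richest in periportal hepatocytes and Oat in pericentral ones, and marker genes of both zones were called. Pericentral markers summed to 4481 to 4736 CPM in NDEA livers, against 5989 to 7417 CPM in control livers, mostly from Cyp2e1 and Cyp1a2. Of 9 tested genes 1 was higher (Rhbg) and 3 were lower (Cyp1a2, Oat and Cyp2e1), and Lgr5 was at 0 in both. The other 5 were not called, so the sum follows its most abundant genes and not the whole list. Periportal markers summed to 66461 to 81417 CPM in NDEA livers, against 75033 to 98656 CPM in control livers, mostly from Alb, with 2 of 10 higher (Sds and Aldh1b1) and 3 lower (Apoa4, Cdh1 and Alb). Of the hepatocyte list 3 of 11 were higher and 2 lower. Apoa1 was at a log2 fold change of 0.74, Ttr at 0.43 and Serpina1 at 0.31, while Apoh was at -0.50 and Alb at -0.25. With the mitochondrial share in the fit Alb turned to 0.038, and Apoh, Serpina1, Cdh1, Aldh1b1 and Cyp2e1 lost their calls. The latter were then at -0.33, 0.36, -0.57, 0.84 and -0.30, in that order.

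Markers of other cell types were read the same way. All 7 markers of cycling cells were called higher, and summed to 204 to 326 CPM in NDEA livers, against 7.56 to 59.4 CPM in control livers. With single libraries left out, 3 of the 7 lost the call (Birc5, Ccnb1 and Cdk1, adjusted p up to 0.111). None of the 7 calls held with the mitochondrial share in the fit (adjusted p between 0.0649 and 0.438), where their log2 fold changes were 1.99 to 3.33. The largest log2 fold changes were 4.29 for Top2a, 4.2 for Ccnb1, 4.19 for Cdk1 and 3.61 for Cdc20. Stellate and fibroblast markers summed to 411 to 492 CPM in NDEA livers, against 228 to 332 CPM in control livers, with 2 of 7 higher (Dcn and Col3a1). Cholangiocyte and progenitor markers summed to 44.3 to 79.0 CPM in NDEA livers, against 18.4 to 26.4 CPM in control livers, with 0 of 3 called and Krt19 at 0 in both. Kupffer cell markers overlapped, at 575 to 680 CPM in NDEA livers and 532 to 680 CPM in control livers, with 1 of 9 higher (Marco) and 1 lower (Vsig4). In the endothelial list 0 of 4 were called, and Stab1 and Clec4g were at 0 in control livers. Neutrophil markers stood at 2.53 to 14.8 CPM in NDEA livers and 4.06 to 16.5 CPM in control livers, with Mpo, Elane, Prtn3 and Ctsg at 0 in both. Erythroid, megakaryocyte and B lineage lists had 0 called genes among the 5, 2 and 0 tested. The calls of Alb, Serpina1, Dcn, Marco and Vsig4 also ended with single libraries left out (adjusted p up to 0.119). With the mitochondrial share in the fit Dcn, Col3a1, Marco and Vsig4 lost their calls. They were then at 0.62, 0.78, 0.38 and -0.81 (limma-voom, adjusted p = 0.731, 0.0989, 0.676 and 0.390), in that order. With all 16 libraries in 1 fit Dcn and Col3a1 were not called (adjusted p = 0.0881 and 0.0891). The part of these marker levels in the changes of the 9 enzymes was not tested.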

How the data were processed

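RNA of rat liver and bone marrow was counted in 16 libraries made with a 3' mRNA kit (QuantSeq, forward), per the labels' protocols. The submitters' processing notes list STAR and DESeq2 as the authors' tools, with no version. Counting tool, genome build and annotation: not given in the sources used here. The deposited table holds whole raw counts of reads per gene with other columns of the authors, which were not used. Of its 32635 lines, 15579 were held as a quoted cell and 12 records were broken over lines. After rejoining, 32623 records were read, and in 16313 that hold group totals all totals equalled the sums. Because a plain reading puts stray pieces under the count columns, limma-voom was chosen in place of a count model. The rejoined values that were fitted are whole counts.

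Liver and marrow had separate filters, scaling and fits. Genes were kept where 4 or more libraries reached the CPM of 10 counts in a library of median size and the total was 15 counts or more. Scaling was by TMM (trimmed mean of M values) with 0.3 of M and 0.05 of A trimmed. CPM is relative to the scaled total of kept genes, and fold changes use log2 CPM with a prior of 0.5 counts. P-values were adjusted by Benjamini-Hochberg over all genes tested, and called under 0.05. The tissue difference was an interaction term over all 16 libraries, which were filtered and scaled together for it. Fits were made in R 4.3.3 with limma 3.58.1, and the method was tested on simulated data. Intervals cover 95%, and the floor for 0 counts is 3 counts.

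The 9 enzymes and the 26 gene lists (227 genes, 220 matched by symbol or alias) were chosen with earlier results of these data known. All 9 enzymes are named whatever their values. Of every other list the called genes are named, at most 4 in each direction by size among those averaging 2 or more on the log2 CPM scale. Other genes named, with their values, were picked after seeing them, as examples of a step in a pathway. Prodh, Aldh4a1, Nr3c1, Ahsg, Pecam1 and Cd79a were not analysed here. Promoters were read from a RefSeq table of GRCr8. Alternatives were other scalings, filters, models, covariates and leaving out each library. The shallowest library was marrow control 1, with 2162182 counts. Leaving it out gave 0 marrow calls, and leaving out marrow control 3 gave 318. The part of depth in the precision of the marrow fit was not tested.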

Additional observations from a re-analysis of the deposited data

Results flagged for a closer look

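Of 25 groups of 4 libraries with values for the 9 enzymes, 4 held a library far from the other 3, by Dixon's criterion at 95% for the gap to its neighbour. Chance flags about 1 in 20 such groups. Otc in liver NDEA 2, at 218 CPM, lay below the other NDEA livers. Hal in liver NDEA 1, at 63.7 CPM, lay below the other NDEA livers, and Hal in liver control 4, at 242 CPM, above the other controls. Without NDEA 1 or without control 4 Hal was still called lower. Otc in marrow NDEA 4, at 3.36 CPM from 17 counts, was the sole marrow library with any count of that gene.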

How the results depend on the processing

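Over 17 alternatives, Hal and Hpd kept their calls and the 4 lower and 1 higher calls became 3 to 4 and 0 to 1 with a library left out. No member was called higher (0) without a filter, with limma-trend, with sample quality weights, with all libraries in one fit, or with the mitochondrial share as a covariate. That covariate left 148 liver genes called, against 639, with 2 enzymes called lower, put Tdo2 at 0.21 and marrow Ass1 at 0.074 on the log2 scale, and left 1 marrow gene called. In liver it moved with treatment, apart from control 2, and raised the SE of each enzyme, for Hal from 0.15 to 0.23 and for Hpd from 0.08 to 0.11. The enzymes that lost their calls there also had smaller log2 fold changes. Tat went from -0.60 to -0.30, Arg1 from 0.43 to 0.24 and Ass1 from -0.37 to -0.30. Their SEs rose too, from 0.12 to 0.16, 0.13 to 0.19 and 0.10 to 0.15, in that order. The parts of the smaller change and the wider SE were not tested. Outside the 9, a call lost in that fit need not mean a smaller change, as for Dhtkd1 (-0.92). Scaling by library totals reversed Otc (0.026), Asl (0.045) and Tdo2 (0.084), none of them called. Leave-one-out log2 fold changes ran from -0.029 to 0.14 for Cps1, -0.14 to 0.039 for Asl and -0.10 to 0.026 for Tdo2. The cause was not tested. Marrow calls were 2 without a filter, 69 in one fit and 0 to 318 with a library left out, and the tissue difference was called for 102 to 509 genes, with 163 and 102 without liver control 3 or 4 and 509 without marrow control 3.

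With the replicate block, 732 liver genes, 289 marrow genes and 270 tissue differences were called, and the calls of the 9 enzymes did not change. NDEA and control libraries with the same number were compared within a tissue. They did not deviate together (r of -0.008 to 0.010 in liver and -0.005 to 0.062 in marrow), so were not taken as pairs. The marrow calls depended on this choice, with 0 called without the block and 289 with it. This check cannot show whether liver and marrow libraries of the same number came from the same rat. That pairing was not tested, and the main fit of the tissue difference treated all libraries as independent.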

Other observations

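For each enzyme called in liver, the 2 tested genes whose log2 CPM followed it most closely over the 8 liver libraries are given as a description. The 8 values share the split into NDEA and control, so any gene that moves with treatment scores high. Hal was followed by Spop (Pearson r = 0.993) and Cldn2 (0.983). Hpd was followed by Oaf (0.993) and by a record listed as RF00015 (0.986). Tat was followed by Igfbp4 (0.983) and Tmem150a (0.982). Arg1 was followed by Ift52 (0.970) and Rad51ap1 (0.969), and Ass1 by Dab1 (0.959) and Dhcr7 (0.958).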
